A study of Mus musculus with 6 samples.

Results

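The calcium pumps and exchangers described here are 10 genes, read by name from 49568 gene entries that were measured in each of 6 samples. They comprise the 4 plasma membrane calcium ATPases (PMCA), which are Atp2b1, Atp2b2, Atp2b3 and Atp2b4, the 3 Na/Ca exchangers (NCX), which are Slc8a1, Slc8a2 and Slc8a3, and 2 of the K-dependent Na/Ca exchangers (NCKX), which are Slc24a2 and Slc24a3. The list is completed by Slc8b1, which encodes a Na/Ca exchanger of the inner mitochondrial membrane (NCLX) and not of the plasma membrane, so 9 of the 10 genes act at the cell surface. All 10 were found in the files and 9 had RPKM above 0 in at least 3 samples, the requirement for the test between groups.

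Each sample held 15 neurons drawn by micropipette from the preBötzinger complex (preBötC), the site of the medulla from which inspiratory rhythm originates, of 1 mouse at postnatal day 2, and the 6 samples came from 6 different mice. All mice were offspring of Dbx1CreERT2 females and Rosa26tdTomato males, and tamoxifen was given to the pregnant dams on an embryonic day when Dbx1 progenitors are present, which switches on tdTomato in their descendants. Neurons with tdTomato gave 3 Dbx1 samples and neuronal somata without fluorescence gave 3 non-Dbx1 samples, numbered 1 to 3 by their replicate labels, so the second group is defined by the lack of a label that depends on Cre and on tamoxifen. The samples held 6464675 to 9432958 reads on genes, with a mean of 7815666. Neuronal markers were abundant in every sample, with a summed RPKM of 993 to 1708 over 6 genes.

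Neurons remove the calcium that enters during firing by several routes. The PMCA use ATP and have a high affinity for calcium, and calmodulin stimulates them. NCX and NCKX use the inward sodium gradient and move more calcium per unit of time at a lower affinity, with NCKX carrying potassium out together with calcium. Both exchangers move net charge, so their activity is itself a membrane current.

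The PMCA share the step that defines P-type ATPases, in which phosphate from ATP is transferred to an aspartate of the pump. The coding sequence around that aspartate, the site of catalysis, is shown for Atp2b1. This gene was the most abundant of the pumps here by mean RPKM with the exon lengths that the authors used. The sequence is 5′ to 3′ on the coding strand, from the GRCm38 (mm10) genome with the GENCODE vM21 annotation, and capitals mark the 5 codons for aspartate, lysine, threonine, glycine and threonine.
Atp2b1: atctgttcaGATAAAACAGGAACCctgacg
These 30 bases lie within a single coding exon at chr10:98999808-98999837 on the plus strand. The aspartate is residue 475 of 1220, counted in the coding sequence of the annotated transcript used. Over stretches as long as a read the messages of the genes were almost fully distinct. No run of 50 bases, the full read length, was shared by the longest transcripts of any 2 of the 10 genes, except for 7 runs shared between Atp2b2 and Atp2b3.

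The genes are spread over 10 chromosomes, and none overlaps another member. In GRCm38, Atp2b1 (ENSMUSG00000019943) spans chr10:98914406-99026143, Atp2b2 (ENSMUSG00000030302) chr6:113743831-114042613, Atp2b3 (ENSMUSG00000031376) chrX:73503086-73571005 and Atp2b4 (ENSMUSG00000026463) chr1:133699457-133801041. The exchangers Slc8a1 (ENSMUSG00000054640), Slc8a2 (ENSMUSG00000030376) and Slc8a3 (ENSMUSG00000079055) span chr17:81373105-81738377, chr7:16129826-16161063 and chr12:81197915-81333180. Slc24a2 (ENSMUSG00000037996) spans chr4:86983124-87230477, Slc24a3 (ENSMUSG00000063873) chr2:145167754-145642166 and Slc8b1 (ENSMUSG00000032754) chr5:120511168-120534024. Reads were counted without regard to strand. Exons of other genes overlap 304 exonic bases of Slc8a1, 1.62% of its merged exons, and 6 bases of Atp2b4, and reads there cannot be assigned to a strand.

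Levels are given in RPKM, the reads on a gene per kilobase of exon, scaled to a common number of reads on genes per sample. Atp2b1, the PMCA that most cell types express, had the highest level of the 10 genes by the exon lengths that the authors used. It measured 41.9, 51.6 and 97.9 RPKM in Dbx1 samples 1 to 3 and 44.8, 51.2 and 40.6 RPKM in non-Dbx1 samples 1 to 3. Dbx1 sample 3 stood above the other 5 samples, which lay within 40.6 to 51.6 RPKM, and the groups overlapped. The group means were 63.8 ± 29.9 and 45.5 ± 5.34 RPKM (SD, n = 3 each).

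Atp2b2, a pump with fast activation that is known from cerebellar Purkinje neurons and hair cells, was the second most abundant by the same lengths. It measured 15.1, 18.3 and 36.0 RPKM in Dbx1 samples and 27.5, 10.5 and 15.2 RPKM in non-Dbx1 samples. Dbx1 sample 3 and non-Dbx1 sample 1 were the highest, so the high values came from both groups. Atp2b3, a pump largely confined to nervous tissue, measured 5.51, 3.21 and 7.09 RPKM in Dbx1 samples and 3.24, 4.62 and 4.0 RPKM in non-Dbx1 samples. It varied least over the 6 samples, with a highest value 2.21 times the lowest. Atp2b4, a pump also found in red blood cells, measured 1.95, 5.33 and 2.33 RPKM in Dbx1 samples and 4.39, 1.61 and 1.26 RPKM in non-Dbx1 samples. Its high values, in Dbx1 sample 2 and non-Dbx1 sample 1, again came from both groups. Haemoglobin transcripts were most abundant in the second of these, in which the 5 erythroid markers summed to 14058 RPKM against 90.3 to 1198 RPKM elsewhere, and their part in the Atp2b4 value was not tested.

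Among the NCX genes, Slc8a3 (NCX3) was the most abundant. It measured 5.02, 12.4 and 4.77 RPKM in Dbx1 samples and 8.82, 5.46 and 6.09 RPKM in non-Dbx1 samples. Slc8a1 (NCX1), the exchanger of the heart that many tissues share, measured 0.729, 5.70 and 1.52 RPKM in Dbx1 samples and 1.58, 0.996 and 7.08 RPKM in non-Dbx1 samples. A single sample in each group, Dbx1 sample 2 and non-Dbx1 sample 3, was well above the others, and the highest value was 9.72 times the lowest. The values of Slc8a1 rested on few reads, between 17 and 196 a sample. Slc8a2 (NCX2), which is expressed mainly in brain, measured 1.48, 2.47 and 1.84 RPKM in Dbx1 samples and 2.06, 1.26 and 0.241 RPKM in non-Dbx1 samples, from 16 to 131 reads a sample. Its lowest value was in non-Dbx1 sample 3, the sample in which Slc8a1 was highest.

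Of the NCKX genes, Slc24a3 (NCKX3) was the more abundant in every sample by the authors' length, while by the longest transcript Slc24a2 made up 51.6% of their sum in Dbx1 sample 2. It measured 10.8, 4.94 and 21.0 RPKM in Dbx1 samples and 17.8, 14.5 and 10.5 RPKM in non-Dbx1 samples, and the non-Dbx1 values lay inside the Dbx1 range. Slc24a2 (NCKX2), an exchanger of neurons and cone photoreceptors, measured 3.09, 4.68 and 7.21 RPKM in Dbx1 samples and 2.00, 0.143 and 1.90 RPKM in non-Dbx1 samples. The groups did not overlap, with the lowest Dbx1 value above the highest non-Dbx1 value. The values rested on 642, 921 and 1311 reads in Dbx1 samples and on 337, 32 and 467 reads in non-Dbx1 samples. The highest value was 50.4 times the lowest, a wider spread than for the other 8 genes with reads in all samples.

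Slc8b1 was listed at 0 in 4 samples. It measured 0.735 and 2.34 RPKM in non-Dbx1 samples 1 and 2, from 33 and 139 reads, and had no read in the 3 Dbx1 samples or in non-Dbx1 sample 3. In those 4 samples a count of 0 allowed a level of up to 0.0543, 0.0573, 0.0621 and 0.0458 RPKM, respectively, which is the value of 3 reads and covers counting error only. Because 1 non-Dbx1 sample also held no read, the groups overlapped.

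**Figure D1:**
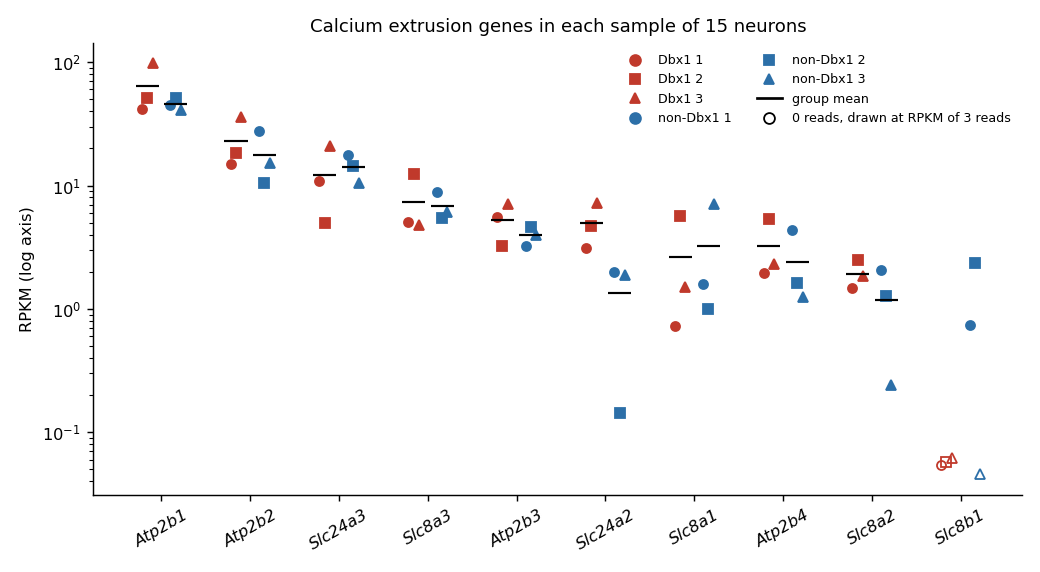
RPKM of each gene (vertical log axis) in the 3 Dbx1 samples (red) and the 3 non-Dbx1 samples (blue), with symbols for the replicate, black lines for group means of genes with reads in all samples, and open symbols at the RPKM of 3 reads where no read was found. By the authors' exon lengths, Atp2b1 lies highest, between 40.6 and 97.9 RPKM. Slc24a2 is the gene whose red and blue points do not overlap.

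Most of the highest values of the 10 genes lay in Dbx1 samples 2 and 3. Dbx1 sample 3 held the highest RPKM of 5 of the 10 genes, namely Atp2b1, Atp2b2, Atp2b3, Slc24a2 and Slc24a3. Dbx1 sample 2 held the highest RPKM of Slc8a2, Slc8a3 and Atp2b4, together with the lowest of Atp2b3 and Slc24a3. The share of all genes that were highest in each sample was not computed, so these counts have no background.

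The first comparison asked whether neurons of the rhythm-generating lineage differ from their neighbours in these genes. The difference, L2FC, is the mean log2(RPKM + 1) of the Dbx1 samples minus that of the non-Dbx1 samples, so the added 1 understates the change of genes with low levels. Of 17614 genes tested with limma, 0.00568% had FDR under 0.1, which is 1 gene, and none of the 9 members tested was among them. The authors' DESeq2 test of counts from the same samples called Hif1a, Pbx3 and Syt10 higher in Dbx1 at this threshold, among others. Here limma called no gene higher in Dbx1, so a lack of calls does not show that the groups are alike. At an unadjusted p under 0.05 limma called 5.2% of all genes and 0 of the 9 members. L2FC was above 0 for 7 members and below 0 for 2, with a median of 0.32 against 0.01 for all genes tested.

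Slc24a2 came nearest to the threshold. Its L2FC was 1.42 ± 0.63 (SE, 95% interval -0.01 to 2.86; limma p = 0.0519, FDR = 0.912; exact permutation test, p = 0.10). The means were 4.99 ± 2.08 RPKM in Dbx1 and 1.34 ± 1.04 RPKM in non-Dbx1 samples (SD, n = 3 each). A p of 0.10 is the smallest that an exact permutation test of 3 against 3 samples allows. Groups that did not overlap with Dbx1 higher were found for 5.35% of all genes tested and for 1 of the 9 members, Slc24a2, and groups that did not overlap with non-Dbx1 higher for 5.24% of all genes and for 0 members. The lowest value, 0.143 RPKM, was in non-Dbx1 sample 2, which also held the highest sum of 4 endothelial markers, 72.7 RPKM against at most 2.96 RPKM elsewhere. Of that sum, 63.7 RPKM came from Cldn5, and the part of endothelial transcripts in the Slc24a2 value was not tested. Without non-Dbx1 sample 2 the L2FC of Slc24a2 was 0.97 (limma FDR = 0.950). In samples of pooled neurons, fewer neurons with the transcript and less transcript per neuron cannot be told apart.

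The estimates of the 4 pumps were all above 0, with wide intervals. L2FC was 0.39 ± 0.33 for Atp2b1 (SE, 95% interval -0.36 to 1.14; limma FDR = 0.949), 0.37 ± 0.44 for Atp2b2 (interval -0.64 to 1.38), 0.30 ± 0.48 for Atp2b3 (interval -0.80 to 1.39) and 0.32 ± 0.62 for Atp2b4 (interval -1.09 to 1.74). Each interval held 0, and that of Atp2b1 was the narrowest among the 9 genes. Without Dbx1 sample 3, L2FC was 0.0364 for Atp2b1, 0.0120 for Atp2b2 and 0.0892 for Atp2b3, and 0.45 for Atp2b4.

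The exchangers gave estimates on both sides of 0. L2FC was 0.50 ± 0.55 for Slc8a2 (SE, 95% interval -0.75 to 1.75), 0.02 ± 0.47 for Slc8a3 (interval -1.05 to 1.09), -0.17 ± 0.78 for Slc8a1 (interval -1.95 to 1.60) and -0.37 ± 0.49 for Slc24a3 (interval -1.50 to 0.75). The FDR of these 4 genes lay between 0.958 and 0.998 (limma). Without non-Dbx1 sample 3 the L2FC of Slc8a2 was 0.14. Slc8a1 had the widest interval of the 9 genes.

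**Figure D2:**
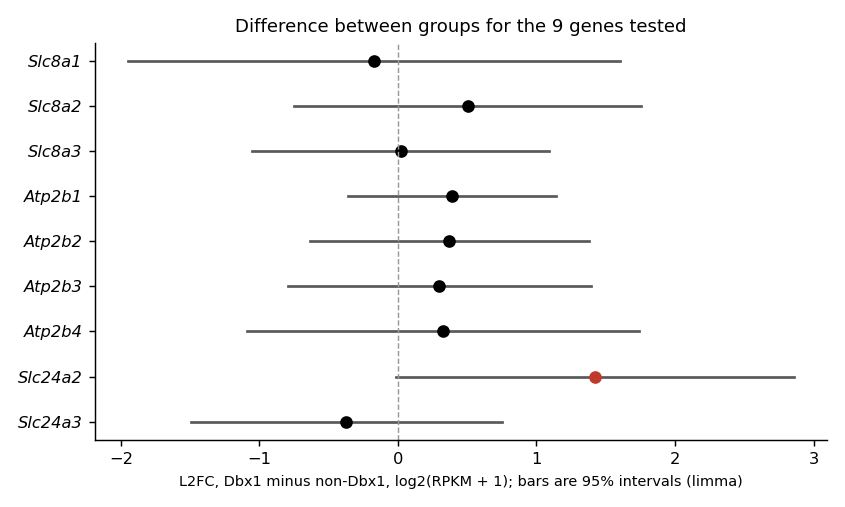
L2FC (horizontal axis, Dbx1 minus non-Dbx1 on the log2(RPKM + 1) scale) of the 9 genes tested, with the 95% interval of limma as bars and the gene whose groups did not overlap in red. All 9 intervals include 0, and Slc24a2, at 1.42, lies farthest from it.

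The summed RPKM gives the total message per length of the listed genes of a family. For NCKX these are Slc24a2 and Slc24a3 only. The NCKX genes outside the list summed to 7.70 RPKM in non-Dbx1 sample 3 and to 0.211 to 2.37 RPKM elsewhere. The PMCA sum measured 64.4, 78.4 and 143 RPKM in Dbx1 samples and 79.9, 67.9 and 61.1 RPKM in non-Dbx1 samples. The group means were 95.4 ± 42.1 and 69.6 ± 9.54 RPKM (SD, n = 3 each), and the difference was smaller than the spread (log2 difference 0.38, exact permutation test, p = 0.50). Without Dbx1 sample 3 the log2 difference was 0.04. The NCX sum measured 7.23, 20.6 and 8.12 RPKM in Dbx1 samples and 12.5, 7.71 and 13.4 RPKM in non-Dbx1 samples (log2 difference -0.03, exact permutation test, p = 1). The NCKX sum measured 13.9, 9.62 and 28.2 RPKM in Dbx1 samples and 19.8, 14.7 and 12.4 RPKM in non-Dbx1 samples (log2 difference 0.02, exact permutation test, p = 1).

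The pumps exceeded the Na/Ca exchangers in every sample. The ratio of the PMCA sum to the NCX sum was 8.91, 3.80 and 17.6 in Dbx1 samples and 6.41, 8.80 and 4.56 in non-Dbx1 samples, so the lowest and the highest ratio both came from Dbx1 samples.

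Within families, Atp2b1 led the pumps in each sample by the authors' length, though by the longest transcript Atp2b2 led in non-Dbx1 sample 1, with 55.7% of the sum. Atp2b1 made up 65.0%, 65.8% and 68.3% of the PMCA sum in Dbx1 samples and 56.0%, 75.4% and 66.5% in non-Dbx1 samples. Atp2b2 made up 15.4% to 34.4%, Atp2b3 4.05% to 8.55% and Atp2b4 1.63% to 6.80% over the 6 samples. The Dbx1 samples spanned a narrower range of the Atp2b1 share than the non-Dbx1 samples, with an SD of 1.70 against 9.71 percentage points. The SD was also smaller in Dbx1 for Atp2b2 (1.04 against 9.51) but larger for Atp2b3 (2.37 against 1.52) and Atp2b4 (2.68 against 1.90). These differences in spread were not tested.

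The makeup of NCX differed among samples. Slc8a3 made up 58.7% to 70.8% of the NCX sum in 5 samples and 45.4% in non-Dbx1 sample 3, in which Slc8a1 made up 52.8% and Slc8a2 1.80%. This pattern turned with the length of the longest transcript, by which Slc8a3 made up 89.8% in that sample, the highest of the 6, and Slc8a1 7.90%. Those shares hold only if Slc8a1 reads were counted over its whole longest transcript, which is not known. In the other 5 samples the share of Slc8a1 was 10.1% to 27.7% and that of Slc8a2 was 11.98% to 22.6%. No NCX or PMCA share differed between the groups beyond their spread (exact permutation tests, p from 0.40 to 1, adjusted p = 1 for each over 8 shares).

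In NCKX, the shares of the groups did not overlap. Slc24a2 made up 22.2%, 48.7% and 25.6% of the sum of both genes in Dbx1 samples and 10.1%, 0.977% and 15.3% in non-Dbx1 samples. The means were 32.2 ± 14.4% and 8.80 ± 7.26% (SD, n = 3 each), and no value of one group lay within the range of the other. The exact permutation test gave p = 0.10, the smallest that it can give here, and p = 0.80 after adjustment over 8 shares. The lowest share, 0.977% in non-Dbx1 sample 2, rested on 32 reads of Slc24a2.

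**Figure D3:**
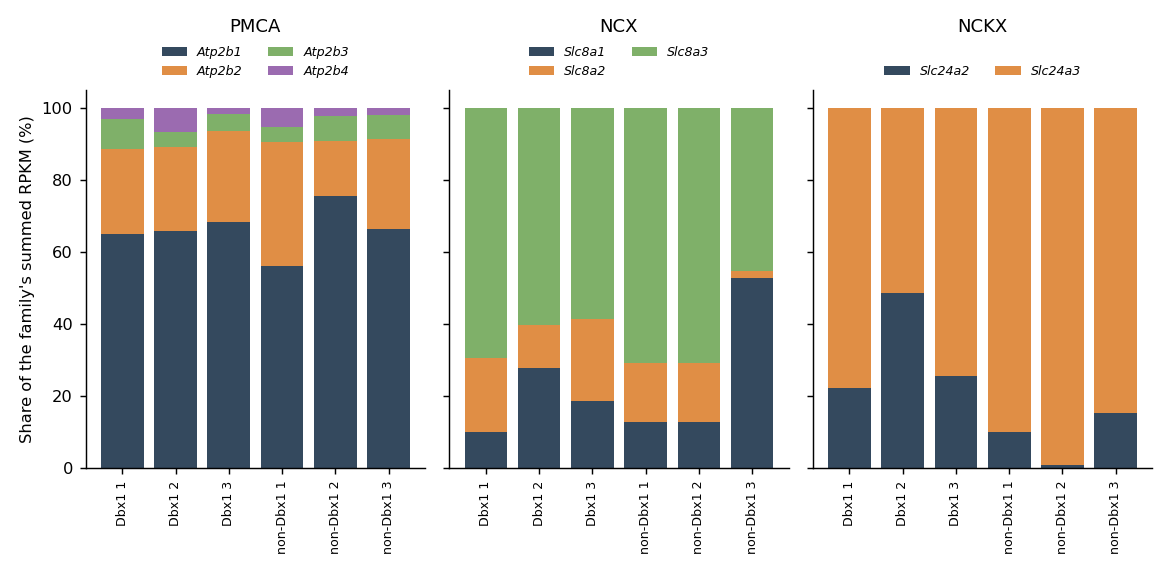
Share of each gene in the summed RPKM of the listed genes of its family (vertical axis, percent) for every sample. PMCA, NCX and NCKX are in separate panels, and the NCKX panel holds Slc24a2 and Slc24a3 only. Atp2b1 fills 56.0% to 75.4% of each PMCA bar, and Slc24a2 fills 22.2% to 48.7% of the NCKX bars of Dbx1 samples and 0.977% to 15.3% of those of non-Dbx1 samples.

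The order of the mean levels over the 6 samples was Atp2b1 (54.7 ± 21.7 RPKM), Atp2b2 (20.4 ± 9.53), Slc24a3 (13.2 ± 5.74), Slc8a3 (7.10 ± 3.0), Atp2b3 (4.61 ± 1.50), Slc24a2 (3.17 ± 2.48), Slc8a1 (2.93 ± 2.73), Atp2b4 (2.81 ± 1.66), Slc8a2 (1.56 ± 0.774) and Slc8b1 (SD, n = 6). Among gene names that were not repeated, Atp2b1 had rank 931 by mean RPKM with the authors' lengths, Atp2b2 rank 2462 and Slc24a3 rank 3566. Of all 49568 gene entries, 27067 had reads in any sample. The order of the first 5 genes was the same in both groups, while Slc24a2 came sixth among the Dbx1 means and eighth among the non-Dbx1 means.

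Each gene was compared with the next in this order by the difference of log2(RPKM + 1) within samples. Atp2b1 was above Atp2b2 in 6 of 6 samples, by 1.42 ± 0.48 on this scale (SD; exact sign-change permutation test, p = 0.0312, adjusted p = 0.141 over 9 pairs). Atp2b4 was above Slc8a2 in 6 of 6 samples, by 0.54 ± 0.34 (exact p = 0.0312, adjusted p = 0.141). These 2 pairs reached the smallest p that 6 samples allow, and the other 7 did not, with exact p from 0.0625 to 0.875. Atp2b2 was above Slc24a3, Slc24a3 above Slc8a3, and Slc8a2 above Slc8b1 in 5 of 6 samples each. Slc24a2, Slc8a1 and Atp2b4 had means between 2.81 and 3.17 RPKM, and Slc8a1 was above Atp2b4 in 2 of 6 samples only. No pair passed an adjusted p of 0.05, so the order is that of the means and not of differences shown pair by pair.

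Levels compared between genes rest on the length by which the authors divided, which could be worked back from the values. That length was 7130 bases for Atp2b1, equal to its longest annotated transcript but below its merged exons, 15218 bases. For Atp2b2 it was 23424 bases, above both its longest transcript, 8877 bases, and its merged exons, 12612 bases. Before division by length, Atp2b2 held more reads than Atp2b1 in every sample except non-Dbx1 sample 2. The merged exons of Atp2b2 are also shorter than those of Atp2b1, so by that length Atp2b2 would be the higher in the same samples. Levels by merged exons were not computed, and which of these 2 pumps is higher depends on the length chosen. For Slc24a2, Slc24a3 and Slc8a3 the authors' length was 2.48, 2.21 and 2.10 times the longest transcript. Slc8a1 was the exception in the other direction, with a length of 2934 bases against 18464. Over 16005 genes, 66.3% had an authors' length above their merged exons, and for 36.3% it equalled the sum of all distinct exons, in which overlapping exons count more than once.

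With the length of the longest transcript in its place, Atp2b2 rose to 53.9 ± 25.1 RPKM and Atp2b1 stayed at 54.7 ± 21.7 RPKM (SD, n = 6). Their difference within samples was then 0.07 ± 0.49 on the log2(RPKM + 1) scale (exact sign-change permutation test, p = 0.531). The share of Atp2b2 in the PMCA sum was 44.0 ± 7.82% by this length and 24.4 ± 6.08% by the authors' length. Slc8a1 fell to 0.466 ± 0.434 RPKM and from position 7 to position 10, and Slc8a3 then made up 85.1 ± 3.69% of the NCX sum. It is not known whether the authors counted Slc8a1 reads over its whole longest transcript. If they did not, this length understates Slc8a1 and overstates the share of Slc8a3. Slc24a3 and Slc8a3 kept positions 3 and 4. The ratio of 1 gene's RPKM between samples does not depend on the length, but its L2FC does through the added 1.

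**Figure D4:**
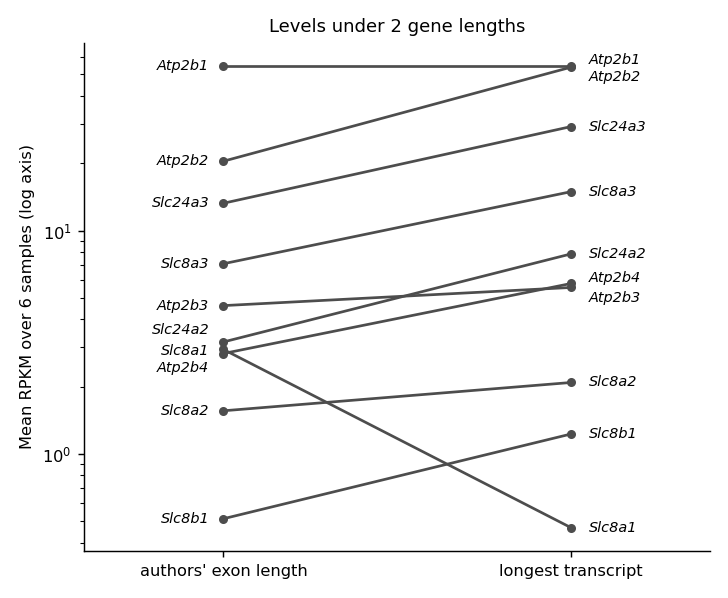
Mean RPKM over the 6 samples (vertical log axis) with the authors' exon length (left) and with the longest annotated transcript (right), with a line for each gene. Atp2b1 and Atp2b2 lie at 54.7 and 20.4 RPKM on the left and nearly coincide on the right, and Slc8a1 falls from 2.93 to 0.466 RPKM.

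The NCKX genes outside the list were low except in non-Dbx1 sample 3. Slc24a5, a melanosome exchanger and the most abundant of the 3, measured 0.299, 1.35 and 2.34 RPKM in Dbx1 samples and 0.0525, 1.07 and 1.11 RPKM in non-Dbx1 samples. Slc24a1, the exchanger of rods, and Slc24a4 reached 1.57 and 5.02 RPKM in non-Dbx1 sample 3, and neither exceeded 0.159 RPKM elsewhere. None of the 2 genes tested in this list passed FDR 0.1 (limma).

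Partners of the pumps ranged from a mean of 1.39 RPKM for Dlg1 to 620 RPKM for Calm2. All 10 were tested and none passed FDR 0.1, with L2FC above 0 for 7 and below 0 for 3, and a median of 0.08 against 0.01 for all genes. Nptn, which encodes neuroplastin, an auxiliary subunit of the PMCA, measured 55.5, 55.5 and 49.1 RPKM in Dbx1 samples and 25.8, 31.1 and 41.9 RPKM in non-Dbx1 samples. Its groups did not overlap, as for 5.35% of all genes in this direction, and its L2FC was 0.71 ± 0.25 (SE; limma p = 0.0217, FDR = 0.912; exact permutation test, p = 0.10). Nptn was the only one of 23 calcium transport genes tested outside the members with an unadjusted limma p under 0.05, at a background of 5.2%. Calm2, a calmodulin gene and the most abundant partner, measured 491 to 819 RPKM in Dbx1 and 522 to 672 RPKM in non-Dbx1 samples.

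Of the other calcium ATPases, which load the endoplasmic reticulum (Atp2a genes) and the Golgi apparatus (Atp2c genes), Atp2a2 was the most abundant. It measured 40.0, 33.9 and 44.4 RPKM in Dbx1 samples and 44.8, 35.9 and 30.8 RPKM in non-Dbx1 samples, with L2FC 0.09 ± 0.25 (SE; limma FDR = 0.983). None of the 4 tested in this list passed FDR 0.1, with L2FC above 0 for 2 and below 0 for 2. Atp2a3 had reads in 1 sample only.

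Genes of mitochondrial calcium uptake had reads in every sample, down to 1 read for Mcur1 in non-Dbx1 sample 2. Smdt1, a subunit of the uniporter and the most abundant of the 7 genes found in the files, measured 94.5 to 120.3 RPKM in Dbx1 and 110 to 146 RPKM in non-Dbx1 samples. All 7 were tested and none passed FDR 0.1, with L2FC from -0.46 to 1.39 and a median of 0.25. Micu2, a regulator of the uniporter, was the one whose groups did not overlap, with 35.01, 29.4 and 25.6 RPKM in Dbx1 samples and 36.3, 46.1 and 42.4 RPKM in non-Dbx1 samples, at a background of 5.24% of all genes with non-Dbx1 higher (exact permutation test, p = 0.10). It lay outside the rule for named genes and was chosen after its values were seen.

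**Figure D5:**
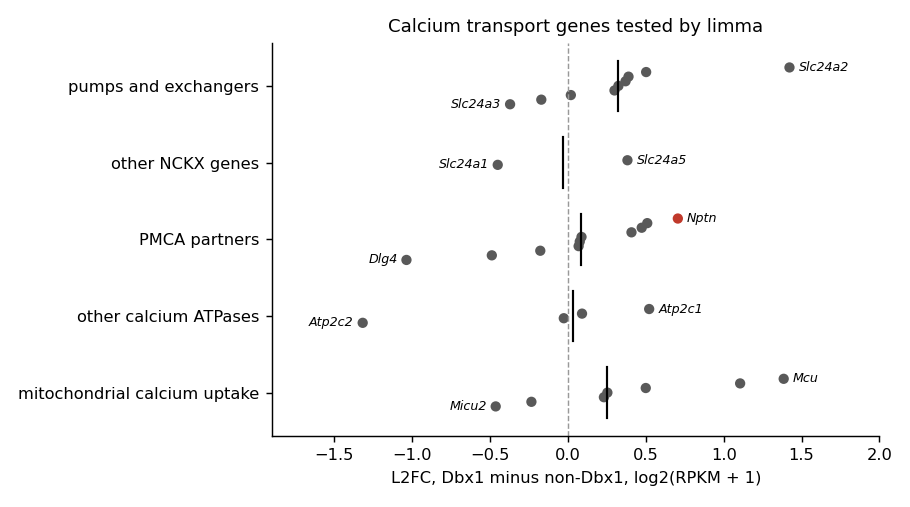
L2FC (horizontal axis, Dbx1 minus non-Dbx1) of the members and of 4 lists of calcium transport genes, with a dot per gene tested, black lines for list medians and red for an unadjusted limma p under 0.05. Nptn, at 0.71, is the red dot, and the medians of all 5 rows lie between -0.03 and 0.32.

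Transcripts of other cells were present, and of the summed marker levels only the erythroid ones did not overlap between groups. The 5 erythroid markers summed to 90.3 to 507 RPKM in Dbx1 samples and 733 to 14058 RPKM in non-Dbx1 samples, and 5 oligodendrocyte markers to 13.9 to 72.7 and 42.5 to 271 RPKM. Hba-a1, Hba-a2, Hbb-bs, Hbb-bt and Mbp had unadjusted limma p under 0.05, all higher in non-Dbx1 samples, and none passed FDR 0.1. The 6 astrocyte markers summed to 30.3 to 61.1 RPKM in Dbx1 and 52.2 to 71.2 RPKM in non-Dbx1 samples. The 6 microglial markers summed to at most 2.97 RPKM in any sample, with Ccl3 and Tnf at 0 throughout. Their part in the members' values was not tested, and without non-Dbx1 sample 1, which held the most erythroid and oligodendrocyte transcripts, the L2FC of Slc24a2 was 1.66 (limma FDR = 0.888).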

How the data were processed

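RNA of 6 samples was sequenced as short single-end reads after amplification of cDNA. The authors aligned reads with TopHat2 to mm10, counted them without strand with HTSeq, and deposited RPKM. These used exon lengths from an Ensembl annotation and the reads on genes of each sample, with no further scaling between samples. Versions of TopHat2 and HTSeq and the annotation release are not given in the sources used here. Reads per gene, reads per sample and exon lengths were worked back from the deposited RPKM, and 96.5% of genes gave a whole length within 0.02 bases. The authors tested counts with DESeq2. Here the deposited RPKM were tested as log2(RPKM + 1) with limma version 3.58.1 (lmFit, eBayes with trend, two-sided) in R 4.3.3. The test covered 17614 genes above 0 in at least 3 samples, with p-values adjusted to FDR (Benjamini-Hochberg, threshold 0.1). The recovered reads were tested only as an alternative setting, with voom, and DESeq2 was not run. The fit was tested on simulated data. Single values used exact two-sided permutation tests, with 0.10 as the smallest p for 3 against 3. Groups and replicate numbers came from the labels. Named genes were all 10 members, and from other lists those with p under 0.05 or the highest mean RPKM. A marker gene and some sequences are not reported here. The members and lists were chosen with earlier results of these data known. Amplified reads are not independent molecules, so floors cover counting error only.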

Additional observations from a re-analysis of the deposited data

How the results depend on the processing

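No member passed FDR 0.1 in limma under any of 13 alternative settings, which were a pseudocount of 0.1, no filter, a filter of RPKM 1 or more in 3 samples, size factors, no trend, the replicate block, voom on recovered reads, and each sample left out. Of 117 alternative L2FC values of members, 110 kept their sign and 7 did not, all 7 on leaving out a sample. An unadjusted p under 0.05 was reached in 4 of the 117, each time by Slc24a2, whose L2FC ranged from 0.97 to 2.57. Without single samples, L2FC ranged from -0.73 to 0.44 for Slc8a1 (above 0 without Dbx1 replicate 1 or non-Dbx1 replicate 3), from -0.38 to 0.23 for Slc8a3 (below 0 without Dbx1 replicate 2, non-Dbx1 replicate 2 or non-Dbx1 replicate 3), from -0.0138 to 0.71 for Atp2b4 and from -0.84 to 0.11 for Slc24a3 (both turned without Dbx1 replicate 2). The causes were not tested.

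Over all genes, 0 were higher in Dbx1 and 1 in non-Dbx1 samples at FDR 0.1, against 3 in non-Dbx1 samples without the trend and 0 with a pseudocount of 0.1, no filter, the replicate block or voom. Without single samples both counts ranged from 0 to 1. The replicate numbers did not pair the samples, since correlations of same-numbered samples ranged from -0.107 to 0.0248, and with the replicate block the L2FC of Slc24a2 had p = 0.0733 (limma).

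With the longest transcript, the log2 difference of the NCX sum was 0.0863 and the differences in share were -4.55 percentage points for Slc8a3, -0.30 for Atp2b1 and -0.0326 for Atp2b3, each with the opposite sign to the authors' length, and the log2 difference of Atp2b3 and Slc24a2 was -0.0850. In non-Dbx1 samples alone, Slc24a2 was below Slc8a1 by -0.69 and Slc8a1 above Atp2b4 by 0.13 on the log2(RPKM + 1) scale. Without single samples, the log2 difference ranged from -0.51 to 0.25 for the NCX sum, from 0.04 to 0.62 for the PMCA sum and from -0.40 to 0.37 for the NCKX sum. The differences in share then ranged from -14.1 to 6.01 for Slc8a1, -7.91 to 4.77 for Slc8a3, -4.55 to 5.14 for Atp2b1, -5.75 to 3.76 for Atp2b2, -1.28 to 0.950 for Atp2b3 and -0.979 to 1.61 for Atp2b4, and for Slc24a3 from -28.3 to -15.1 percentage points, which kept its sign.

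With 3 samples a group, intervals were wide, and low genes such as Slc8a1 and Slc8a2 rested on as few as 17 and 16 reads a sample.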
